A study of Saccharomyces cerevisiae with 6 samples.

Results

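The poly(A) tail lengths of wild-type budding yeast (Saccharomyces cerevisiae) messenger RNAs were described gene by gene, against the abundance of each RNA and the class of its gene. Genes were taken from the deposited table of tail medians where they had 20 or more reads in both wild-type libraries, and 4074 of the 4909 listed genes did. The remaining 835 genes had fewer than 20 reads in at least 1 of the libraries. The values were the read count of each gene and the median tail length of its reads, which the table gives without a unit and which is taken here as nucleotides (nt).

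The study compared the reference strain with strains in which decapping or deadenylation factors can be depleted through degrons, and only its 2 wild-type libraries were used here. The strain was BY4741, a haploid of mating type a (Mat a) with the alleles leu2Δ0, his3Δ1, ura3Δ0 and met15Δ0. Cells grew in YPD, a rich glucose medium, at 30 °C to an OD600 of 0.4, in exponential phase. They were exposed for 1 h to 100 µM IAA, the auxin that triggers degrons, and to 1 µM β-estradiol. These wild-type cells therefore carried no degron but were not untreated. RNA was prepared with hot phenol and sequenced directly with the SQK-RNA002 nanopore kit, without conversion to cDNA.

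A poly(A) tail is added in the nucleus when the 3′ end of a messenger RNA is cleaved, and poly(A)-binding protein coats it. In the cytoplasm the Pan2-Pan3 and Ccr4-Not deadenylases shorten the tail, after which the RNA can be decapped and degraded. A steady-state tail length is therefore an average over molecules of different ages, and direct RNA sequencing reads it only in molecules whose tail was long enough to be captured by the adapter. Pumilio-family proteins are RNA-binding proteins that bring Ccr4-Not to particular RNAs. In yeast, Puf3 is known for RNAs of mitochondrial proteins, above all mitochondrial ribosomal proteins, and Puf4 for RNAs of ribosome assembly factors.

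Short target sites of both proteins are shown because deadenylation recruited through such sites is the best known sequence link to tail length in this organism, and the tails of their holders are described further on. Each is 30 bases of the R64 reference of RefSeq, the assembly behind the sacCer3 build named in the submitters' processing notes, read 5′ to 3′ on the strand of the gene. Capitals mark the match to TGTANATA for Puf3 and to TGTANANTA for Puf4. The genes are the 3 holders with the highest read number in the shallower library within mitochondrial ribosomal proteins and within ribosome biogenesis factors.

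MRPS12 (Puf3; chrXIV:694269-694298, minus strand): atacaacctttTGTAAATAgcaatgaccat
MNP1 (Puf3; chrVII:375739-375768, plus strand): ggaatatatcaTGTAAATAtgtttaactct
MRPS18 (Puf3; chrXIV:58860-58889, plus strand): atatatattcgTGTAAATAattcgattttt
NHP2 (Puf4; chrIV:88059-88088, plus strand): gtaggccttcTGTATATTAtataatactac
NOP10 (Puf4; chrVIII:241854-241883, plus strand): aagggaatatTGTATAGTAcgtgattctgg
GAR1 (Puf4; chrVIII:282533-282562, minus strand): ccgtttgttcTGTATACTAtatatatatat

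The libraries held 1857632 reads in replicate 1 and 1751159 in replicate 2 over all listed genes, of which the 4074 genes took 98.7% and 99.4%. The median number of reads per gene was 106 and 70. Abundance is given as reads per 1000000 of these totals (CPM), so a gene at the minimum of 20 reads stood at 10.8 and 11.4 CPM. One read stands for one molecule read from its tail, so counts were not divided by gene length. The labels do not say whether the libraries came from separate cultures, so the spread between them may be technical. Of 7 genes taken as markers of mating type a, 6 were listed, at 94.7 to 334 CPM. Of 4 genes of the other mating type, only SAG1 was listed, with 18 and 13 reads. Outside these markers, the mating-type locus genes MATALPHA2 (174 and 307 reads), HMLALPHA2 (174 and 306) and HMRA2 (175 and 309) were also listed. Their counts were nearly equal, so the same reads may stand behind all of them. HMRA1, a further gene of these loci, was listed with more reads, 465 and 1169. Of 5 genes that are low during growth on glucose, 3 were listed and the highest was HXT7 at 32.1 CPM. HIS3 was the only gene of the genotype label that was listed, with 167 and 90 reads, and his3Δ1 leaves part of the gene in place, so it checks nothing.

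The median gene carried a tail of 38.6 nt in replicate 1 and of 43.0 nt in replicate 2, which is 40.8 ± 3.16 nt (SD, n = 2). The 25th and 75th percentiles of genes were 34.8 and 44.3 nt in replicate 1 and 38.6 and 47.7 nt in replicate 2. Over the mean of both libraries, 3586 genes (88.0%) lay from 30 to below 50 nt. Only 66 genes (1.62%) had a mean under 30 nt, whereas 422 (10.4%) reached 50 nt or more, so the upper side of the distribution was the fuller one. When each read rather than each gene was counted, the mean of the gene medians was 34.6 and 35.6 nt, or 35.1 ± 0.696 nt (SD, n = 2). The average RNA molecule thus came from a gene with a shorter tail than the median gene had. Cytoplasmic ribosomal protein genes took 39.5% of reads in replicate 1 and 54.2% in replicate 2. The read-weighted means therefore rest on different mixtures of genes, and their small SD is not a measure of agreement per gene.

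Tails were longer in replicate 2 for 3206 of 4074 genes (78.7%), by 3.50 nt in the median gene. This offset was not the same at all tail lengths. In 10 bins of the mean tail it was 1.82 nt in the shortest bin, rose to 5.16 nt in the sixth and was 2.08 nt in the longest. Cytoplasmic ribosomal protein genes were offset by a median of 1.15 nt. The offset had almost no rank relation to abundance (Spearman's rho 0.054) or to coding length (-0.031) over these genes. It was nonetheless uneven across bins of reads in the shallower library. The median offset was 2.82 nt at 20 to 49 reads, 4.15 nt at 50 to 99 and 1.62 nt at 1000 or more. The counts did differ with coding length: the log2 ratio of CPM in replicate 2 to that in replicate 1 had a rho of -0.550 with coding length, so that replicate 2 held relatively more reads of short genes. The counts of the libraries differed far beyond sampling noise (chi-square divided by its degrees of freedom, 64.6), so they were kept as separate samples.

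The order of genes by tail length was shared in part. Over 4074 genes Spearman's rho between libraries was 0.698 and Pearson's r was 0.710, against a rho of 0.854 for abundance. These are descriptions across genes, which share the same libraries and are not replicates. After the overall offset was removed, the SD between libraries for a gene was 3.71 nt, against an SD over genes of 6.36 nt. For a typical gene, a difference of a few nucleotides from another gene was therefore within the spread between libraries.

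The number of reads behind a median bore on that spread. At 20 to 49 reads in the shallower library (1557 genes) the SD between libraries was 4.78 nt and rho was 0.539. From 100 to below 300 reads (953 genes) the SD was 2.41 nt and rho was 0.757. From 300 to below 1000 reads (304 genes) the SD was 1.74 nt and rho was 0.830. At 1000 or more reads (202 genes) the SD no longer fell, at 1.80 nt, and rho was 0.764. Single genes are therefore named below mainly among the 1459 genes with 100 or more reads in both libraries.

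**Figure D1:**
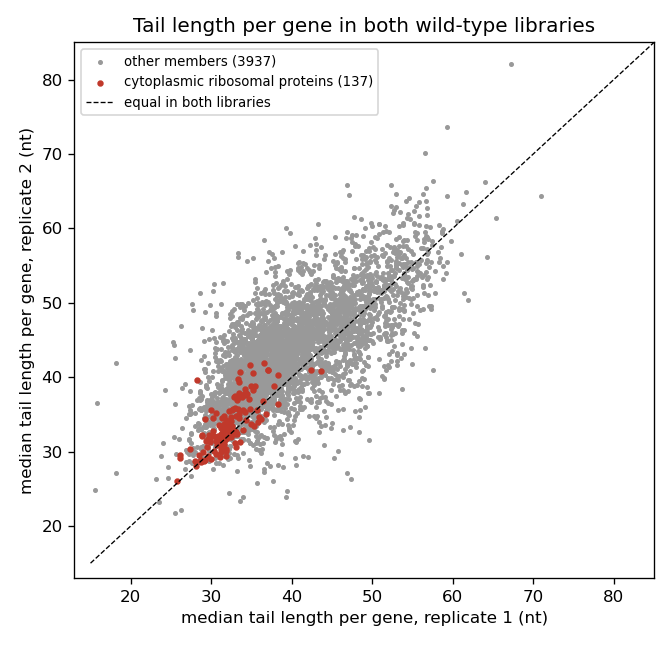
Each point is 1 of 4074 genes, placed by its median tail in replicate 1 (horizontal, nt) and replicate 2 (vertical, nt), with cytoplasmic ribosomal protein genes in red and equality as a dashed line. Most points lie above the line (78.7% of genes), and the red points gather at the short end, with medians of 32.1 and 32.8 nt.

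**Figure D2:**
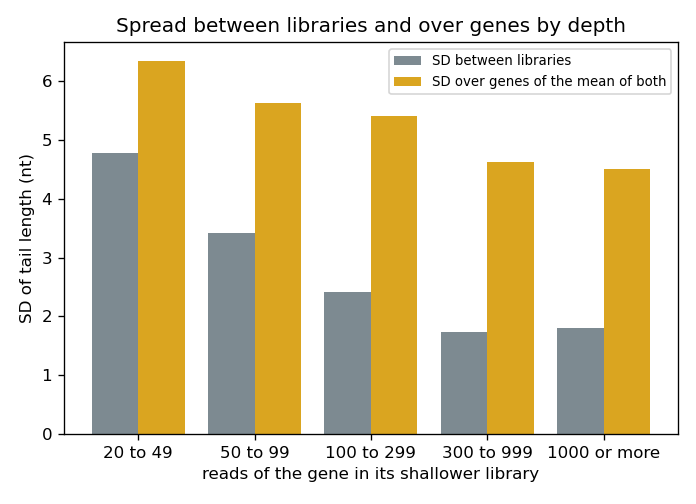
Bars give the SD of tail length (nt) between both libraries and over genes, in 5 bins of the read number in the shallower library. The SD between libraries falls from 4.78 nt at 20 to 49 reads to 1.74 nt from 300 to below 1000 reads, and that over genes stays above 4.5 nt in each bin.

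Abundant RNAs had shorter tails than rare ones. In 10 bins of abundance, the median gene of the rarest bin (median 16.9 CPM) had a tail of 43.8 nt in replicate 1 and 46.3 nt in replicate 2. In the most abundant bin (median 766 CPM) it had 33.6 and 36.5 nt. The fall of the mean over libraries from 44.8 to 35.2 nt passed through every bin without a reversal. A bulk count does not tell many cells with little of an RNA from few cells with much of it.

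The most abundant bin held 134 of the 137 cytoplasmic ribosomal protein genes, and without them its median was 36.5 nt, still the lowest of the bins. Over all 4074 genes the rho of tail length with abundance was -0.430, and it was -0.406 and -0.373 within each library. Without ribosomal protein genes it was -0.381. Among the 137 ribosomal protein genes themselves it was -0.536, so the more abundant of these RNAs also ranked shorter. Across libraries, the tail of replicate 1 against the abundance of replicate 2 gave -0.412, and the tail of replicate 2 against the abundance of replicate 1 gave -0.348.

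A gene was called short where it fell into the lowest 25% of the 4074 genes in both libraries, and long where it fell into the highest 25% in both. There were 653 short genes (16% of those compared) and 655 long genes (16.1%). By a looser measure, 1537 genes (37.7%) lay below the median gene in both libraries and 1538 (37.8%) above it in both. Of the lowest 25% in replicate 1, 64.0% were also in the lowest 25% of replicate 2, and for the highest 25% the share was 64.2%. Only 34 and 31 genes lay at opposite ends in the libraries. In the rarest abundance bin 4.63% of genes were short and 29.8% long, and in the most abundant bin 55.1% were short and 4.41% long.

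The minimum of 20 reads bears on this relation, since rare genes had long tails on both sides of it. The 73 genes whose lower count was 20 had a median of 44.5 nt and the 63 left out at 19 reads had 46.7 nt. The 835 genes left out stood at 47.3 nt in the median. Within bins of read number the relation was weak: rho was between -0.125 and 0.043 in the 4 bins below 1000 reads, and -0.459 above. Each of these 4 bins spans a limited range of abundance. The bin from 300 to below 1000 reads had the smallest SD between libraries, 1.74 nt, and a rho of 0.043. Why the relation was weak within these bins was not tested.

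**Figure D3:**
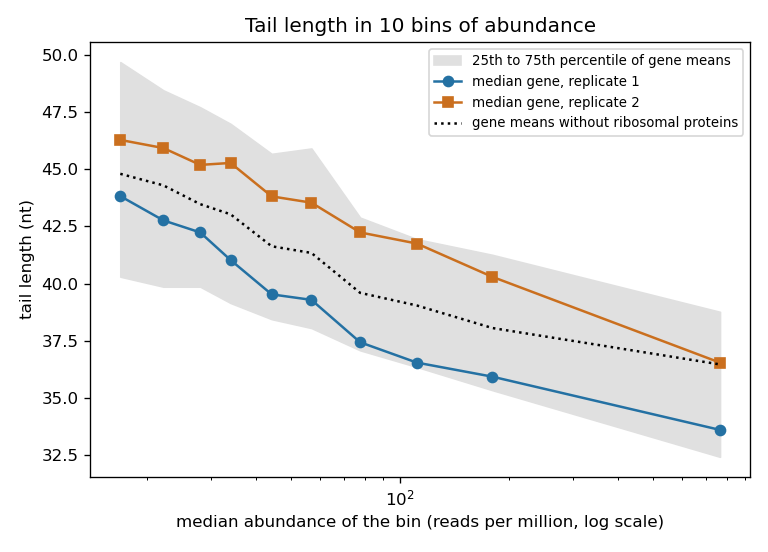
Median tail length (nt) of genes in 10 bins of abundance, placed at the median CPM of the bin on a log axis; circles are replicate 1, squares replicate 2, the grey band the 25th to 75th percentile of gene means and the dotted line the gene means without ribosomal protein genes. Both libraries fall across the bins, from 43.8 and 46.3 nt to 33.6 and 36.5 nt.

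The most abundant RNA was that of ENO2, the main enolase of glycolysis (chrVIII:451327-452640, plus strand; coding region in R64, as for the coordinates below). It took 3.50% of reads in replicate 1 (95% Wilson interval 3.47 to 3.53) and 3.08% in replicate 2 (3.06 to 3.11), intervals that cover counting error only. Its tail was 33.8 and 34.4 nt. ENO2 has a close paralog in ENO1, which stood at 41.5 and 41.7 nt.

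Next in abundance were RPS31, which encodes a ubiquitin fused to a ribosomal protein, RPS12 and RPL28. The tail of RPS31 was 32.9 and 32.3 nt, that of RPS12 28.7 and 28.6 nt, and that of RPL28 28.0 and 28.8 nt. These 3 RNAs did not show the offset between libraries. The glyceraldehyde-3-phosphate dehydrogenase gene TDH3 did, with 34.2 and 38.4 nt, whereas phosphoglycerate mutase GPM1 stood at 31.8 and 30.8 nt. TEF1 and TEF2, which encode the same elongation factor and are nearly identical, gave 30.9 and 35.8 nt and 30.9 and 35.6 nt. Reads may have been split between that pair, so they count as one value. All 8 of the most abundant RNAs lay below the median gene in both libraries.

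Cytoplasmic ribosomal protein genes had the shortest tails of the 28 gene classes described. The class median was 32.1 nt in replicate 1 and 32.8 nt in replicate 2, and the 25th and 75th percentiles of its genes were 31.0 and 34.9 nt. Of 137 genes, 112 were short (81.8%, beside 16% of all genes), none was long, and 135 lay below the median gene in both libraries, against 37.7% of all genes. In the most abundant bin, which held 134 of these genes, 55.1% of genes were short. Ribosomal protein genes made up 14 of the 37 genes with a tail under 30 nt in both libraries. The shortest was RPL33B, with 25.8 and 26.0 nt (25.9 ± 0.163 nt, SD, n = 2; chrXV:778555-779405, minus strand, with 1 intron). The longest at 100 or more reads was RPL22B, a minor paralog, with 43.6 and 40.8 nt at 297 CPM, a low level for this class (median 3206 CPM). Several ribosomal proteins have near-identical gene pairs between which reads can be split. The 89 ribosomal protein genes with an intron had a median of 32.6 nt, and the 48 without had 32.6 nt.

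Cytoplasmic aminoacyl-tRNA synthetases, which charge tRNAs with amino acids, formed a tight and short class. All 21 listed genes qualified, with class medians of 33.5 and 37.3 nt and 25th and 75th percentiles of 34.7 and 36.1 nt. Of these, 15 were short (71.4%), none was long, and 20 lay below the median gene in both libraries. In the abundance bin of their median 28.3% of all genes were short. Glycyl-tRNA synthetase GRS1 had the shortest tail, 32.0 and 31.7 nt. Glutaminyl-tRNA synthetase GLN4 had the longest, 36.4 and 44.0 nt. At a median of 228 CPM these RNAs were far less abundant than those of ribosomal proteins.

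Other genes of protein and RNA synthesis had class medians below the median gene of all 4074. Among genes with 100 or more reads this was lost for initiation factors (0.06 and -0.575 nt from the median gene by library). Elongation and termination factors there stayed slightly below it in each library (-0.57 and -0.185 nt) but stood at 0.0975 nt over the mean of libraries. Of 25 translation initiation factors, 6 were short (24.0%) and 1 long, with TIF11 (eIF1A) at 31.6 and 33.2 nt and TIF5 (eIF5) at 41.2 and 46.7 nt. In the abundance bin of their median 28.3% of all genes were short. Of 12 elongation and termination factors, 4 were short (33.3%) and 1 long, beside 55.1% of genes short in their bin, the most abundant. That share includes the 134 ribosomal protein genes of the bin, a class with 81.8% short genes. Of 30 RNA polymerase I, II and III subunits, 10 were short (33.3%) and none long, beside 18.7% short in their bin. Of these subunits, 22 lay below the median gene in both libraries. RPB8, a subunit of all 3 polymerases, had 26.9 and 30.3 nt.

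The 122 ribosome biogenesis factors, which assemble ribosomal subunits in the nucleolus, had medians of 35.9 and 41.2 nt. Of these, 24 were short (19.7%) and 3 long (2.46%). In the abundance bin of their median, 18.7% of all genes were short and 8.60% long. The 3 long factors included TIF6, which binds the large subunit before its export, with 54.7 and 61.3 nt, at the other end from its class. TIF6 stood at 194 CPM in replicate 1 and 59.4 CPM in replicate 2.

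Glycolysis and fermentation genes split. Of 17, 7 were short (41.2%) and 3 long (17.6%), 10 lay below the median gene in both libraries and 5 above. In the most abundant bin, which held the median of this class, 55.1% of genes were short and 4.41% long. That bin included 134 ribosomal protein genes, a class with 81.8% short genes, and its share without them was not computed. Several abundant enzymes were short, such as FBA1 (aldolase) with 29.3 and 33.3 nt and PDC1 (pyruvate decarboxylase) with 30.9 and 34.9 nt. The kinases at the start of the pathway were longer: HXK2 (hexokinase) had 46.6 and 50.9 nt and GLK1 (glucokinase) 53.0 and 64.6 nt, the latter on 131 and 84 reads. The remaining long gene, TDH1, does not encode a kinase and had 50.6 and 58.7 nt on 193 and 93 reads. PFK1 and PFK2, the subunits of phosphofructokinase, had 42.2 and 51.4 nt and 45.2 and 47.3 nt.

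Cytosolic chaperones ranged widely. SSA2, a constitutive Hsp70, had one of the shortest tails of all, 23.1 and 26.3 nt, and its close paralog SSA1 had 28.9 and 29.2 nt. HSC82, the constitutive Hsp90, had 27.4 and 31.1 nt. The disaggregase HSP104 had 53.1 and 56.8 nt and the Hsp70 co-chaperone SIS1 44.5 and 49.1 nt. In all, 8 of 23 were short (34.8%) and 3 long, beside 16% and 16.1% of all genes. In the abundance bin of their median, 28.3% of all genes were short and 6.88% long.

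Hexose transporters had the longest tails of the classes. Their medians were 54.6 and 56.0 nt, and all 6 genes lay above the median gene in both libraries, against 37.8% of all genes. Of the 6, 5 were long (83.3%), beside 16.1% of all genes and 8.60% in the abundance bin of their median. HXT3, the most abundant with 2361 and 1037 reads, had 53.3 and 54.4 nt. HXT1 was the shortest with 41.2 and 47.4 nt. HXT6 (55.8 and 60.4 nt) and HXT7 (56.4 and 58.2 nt) are nearly identical, so their reads may be shared. In replicate 2, HXT4, HXT6 and HXT7 had only 61, 34 and 39 reads, so the class rests on few and partly shallow values.

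Cell wall and secreted glycoproteins combined long tails with fairly high abundance over the mean of the libraries. Their medians were 45.9 and 47.5 nt at a median of 145 CPM, where all genes with 141 to 272 CPM had a median of 38.1 nt. The libraries differed in this abundance: the class took 1.65% of reads in replicate 1 and 0.596% in replicate 2. Of 31 genes, 13 were long (41.9%, beside 16.1% of all genes), none was short, and 25 lay above the median gene in both libraries. HSP150, a secreted protein with internal repeats, had 56.5 and 59.5 nt. The structural mannoprotein SED1 had 55.9 and 53.9 nt, and CCW12, the most abundant of the class with 10846 and 4185 reads, had 41.7 and 44.5 nt. Below the median gene in both libraries were the related glycosidases UTR2, with 28.6 and 39.4 nt, and CRH1, with 33.5 and 42.2 nt.

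Genes of regulators had class medians above the median gene. Of 42 transcription factors on the list, 12 were long and 2 short, with class medians of 44.9 and 46.3 nt. The longest at 100 or more reads was HAC1, the regulator of the unfolded protein response, with 48.6 and 61.3 nt on 1332 and 161 reads. Of 16 cyclins, 4 were long and none short, and 10 lay above the median gene in both libraries, against 37.8% of all genes. Of 11 autophagy genes, 4 were long and none short. Only 42 of 69 listed transcription factors and 11 of 25 listed autophagy genes had 20 reads, since these RNAs were rare. At medians of 33.6, 26.7 and 30.2 CPM, these 3 classes stood in abundance bins whose median tails were 43.0 to 43.5 nt and in which 19.9% and 23.5% of genes were long. The share of long cyclins was 25%, close to that of their bin.

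Histone genes ranked among the abundant RNAs, with a median of 1416 CPM, but their tails were of ordinary length. The class medians were 39.1 and 42.8 nt. HTA2 (histone H2A) had 31.3 and 34.5 nt, and HHT2 (histone H3) had 46.3 and 49.1 nt. HHT1, the other H3 gene, stood lower in both libraries, at 32.2 and 40.0 nt. Of the H2B genes, HTB1 had 45.2 and 48.9 nt and HTB2 37.1 and 39.4 nt. Their coding sequences are alike, so the assignment of reads within a pair is uncertain.

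Factors of messenger RNA decay and deadenylation had class medians of 37.5 and 41.8 nt. Of 32 genes, 3 were short and 3 long (9.38% each), beside 16% and 16.1% of all genes. Both LSM3 and LSM5, small proteins of the Lsm ring, stood at the short extreme, with 23.4 and 23.3 nt and with 24.6 and 26.4 nt. Of the other LSM genes of the class, LSM7 was also short, whereas LSM1, LSM2, LSM4 and LSM6 were not. Their partner PAT1, which works with the Lsm ring in decapping, had 52.6 and 62.1 nt on 136 and 36 reads. DCP2, the decapping enzyme, had 37.8 and 32.3 nt, POP2, a deadenylase of Ccr4-Not, had 33.2 and 42.2 nt, and PAB1, which encodes poly(A)-binding protein, had 40.5 and 46.5 nt. DCP2 lay below the median gene in both libraries and PAB1 above it in both.

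Across classes, 19 of 28 had a median below the median gene in both libraries and 6 had one above in both. Class medians ranked alike in the libraries (rho 0.903 over 28 classes). They fell with class abundance (rho -0.589 over 28 classes). Among the 1459 genes with 100 or more reads the comparison changed, because the median gene there was shorter, at 35.7 and 40.2 nt. Of the 22 classes with 5 or more genes left, 7 lay below in both libraries, 9 lay above in both and 6 were split. Ribosomal proteins (-5.42 nt), aminoacyl-tRNA synthetases (-2.84 nt), chaperones (-1.93 nt) and glycolysis (-1.87 nt) were still shorter than that median gene over the mean of the libraries. Cell wall genes (8.45 nt) and histones (3.48 nt) were longer. Ribosome biogenesis factors, the proteasome, mitochondrial import, the vacuolar ATPase, ergosterol biosynthesis and amino acid biosynthesis, which had lain below all 4074 genes, lay above in both libraries there, by between 0.158 and 1.32 nt over their mean.

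**Figure D4:**
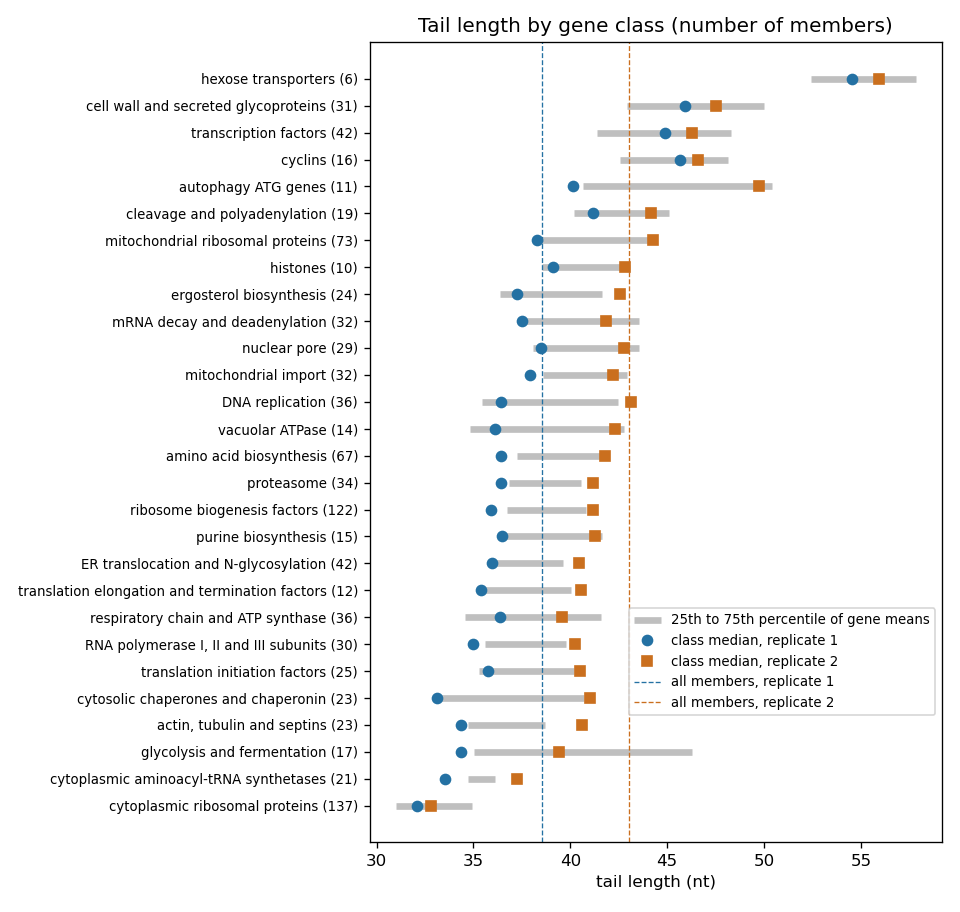
Tail length (nt) of 28 gene classes, ordered by the median of gene means: circles are the class median in replicate 1, squares in replicate 2, grey bars the 25th to 75th percentile of gene means and dashed lines the median of all 4074 genes in each library. Ribosomal proteins are lowest at 32.1 and 32.8 nt, and hexose transporters highest at 54.6 and 56.0 nt.

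Classes built from keywords in the deposited gene descriptions, chosen after the data were seen and kept from a larger number tried, gave further values, to be read beside the 16.1% of long and 16% of short genes overall and the 19.9% to 29.8% of long genes in the 4 rarest abundance bins. Permeases and transporters (162 genes) had medians of 42.2 and 46.5 nt, at a median of 41.3 CPM, with 46 long (28.4%) and 11 short. That median abundance lay above the 4 rarest bins, in the fifth, where 14.0% of genes were long. Protein kinases (77 genes) had 43.4 and 45.8 nt, with 20 long (26.0%) and 6 short. Genes of unknown function (440 genes) had 40.4 and 45.5 nt, with 111 long (25.2%) and 56 short. All 16 genes described as lying in a Y' element, a repeat found next to telomeres, were long, with means of 50.2 to 54.4 nt. Y' copies are nearly identical, so those 16 values may come from the same reads. More generally, 10 of the 4074 genes shared both counts and both medians with another listed gene, which is the pattern of reads counted for more than 1 copy. Genes with only nearly equal counts are not in that number.

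Among genes with 100 or more reads in both libraries, the longest tails were those of RGI1, a protein of energy metabolism under respiratory conditions, with 65.4 and 61.4 nt (63.4 ± 2.83 nt, SD, n = 2; chrV:292066-292551, plus strand). SPC1, a subunit of the signal peptidase of the endoplasmic reticulum, had 61.6 and 64.9 nt (63.3 ± 2.33 nt; chrX:458077-458361, minus strand). YKL068W-A, an open reading frame without assigned function, had 61.3 and 63.3 nt. SNF11, a subunit of the SWI/SNF chromatin remodeller, had 58.2 and 60.4 nt. PMP2, a proteolipid that associates with the plasma membrane proton pump, reached 56.6 and 60.3 nt although it was abundant, at 1177 and 706 CPM. HSP150, TIF6 and TMC1, a zinc finger protein of the response to proteotoxic stress (53.8 and 58.3 nt), completed the 8 longest. The ranges of the 8 longest and of the 8 shortest genes did not meet in either library. Since these genes were ranked by the same values, that gap is a description.

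The shortest tails at this depth were those of LSM3, with 23.4 and 23.3 nt (23.4 ± 0.134 nt, SD, n = 2; chrXII:1013909-1014178, minus strand), and SSA2 (24.7 ± 2.26 nt; chrXII:95566-97485, minus strand). LSM5 followed, but it overlaps the antisense reading frame YER145C-A, and the use of strand in counting is not given in the sources used here. RPL33B came next, and then ALD6, whose libraries disagreed. LAT1, a subunit of pyruvate dehydrogenase, had 23.7 and 29.4 nt. GCV3, a subunit of glycine decarboxylase, had 26.7 and 27.7 nt. SQT1, a chaperone of a ribosomal protein, had 24.0 and 31.2 nt. Their abundance varied, from 156 CPM for LSM3 and 352 CPM for GCV3 to 3206 CPM for RPL33B.

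**Figure D5:**
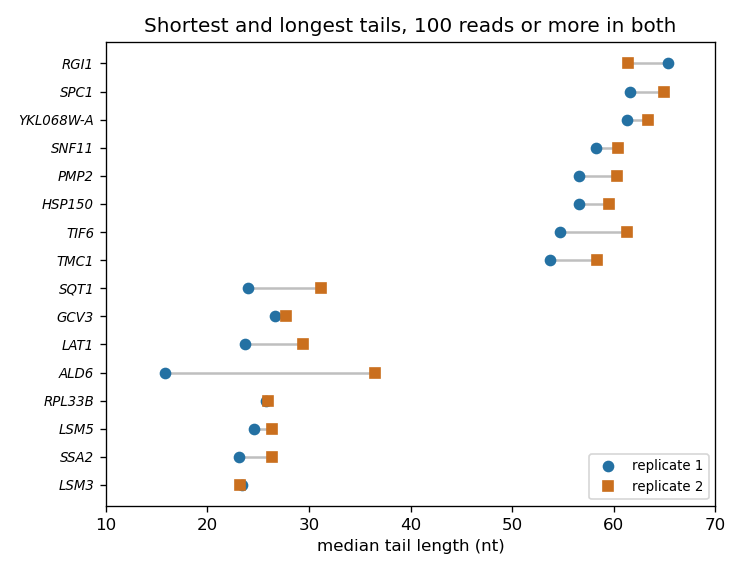
Median tail length (nt) in replicate 1 (circles) and replicate 2 (squares) of the 8 genes with the longest and the 8 with the shortest mean tail among those with 100 or more reads in both libraries, with a line joining the libraries. The long genes lie between 53.8 and 65.4 nt, and ALD6 spans 15.8 to 36.5 nt.

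With no depth condition beyond 20 reads, 7 genes exceeded 60 nt in both libraries. Besides RGI1, SPC1 and YKL068W-A these were TOH1 (67.2 and 82.1 nt), EGO4 (60.6 and 60.9 nt), YOL038C-A (71.0 and 64.4 nt) and YPL067C (64.0 and 66.3 nt), chosen after their values were seen. TOH1 had 143 and 34 reads, and the others had between 22 and 79.

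At the other end, 4 genes had a median under 20 nt in replicate 1 and none had one in replicate 2. They were HSP12, a membrane protein induced by stress (15.5 and 24.9 nt on 26 and 29 reads), STE18, the gamma subunit of the pheromone-response G protein (18.1 and 27.2 nt), ALD6, an acetaldehyde dehydrogenase (15.8 and 36.5 nt), and HSP82, the inducible Hsp90 (18.2 and 42.0 nt).

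ALD6 (chrXVI:432588-434090, plus strand) also had the largest difference between libraries at 100 or more reads, 20.6 nt on 820 and 281 reads. YLR154C-G, a reading frame within the ribosomal DNA repeat, followed with 43.3 and 60.5 nt. YHR007C-A (32.3 and 48.5 nt) and SOD2, the mitochondrial superoxide dismutase (32.6 and 48.2 nt), came next. The latter pair lie 124 bases apart on the same strand and had nearly equal counts, 272 and 126 against 286 and 135, so the same reads may stand behind both. RSM26, a mitochondrial ribosomal protein, had 36.6 and 51.6 nt. For these 5 genes a mean of the libraries describes neither library.

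Among the genes of mating type a, those of the pheromone had the longest tails. MFA1 and MFA2, which encode a-factor, had 54.9 and 52.3 nt and 49.8 and 51.7 nt. STE2, the receptor for the pheromone of the other mating type, had 43.9 and 46.9 nt. The a-factor exporter STE6 (36.3 and 45.9 nt) and the protease BAR1 (36.2 and 45.8 nt) lay near the median gene.

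Genes with longer coding regions had slightly longer tails, with a rho of 0.158 over the 4072 genes found in the R64 annotation. Long genes were also less abundant (rho -0.373). With abundance held constant the partial rho with coding length was -0.003 over the mean of libraries, 0.082 in replicate 1 and -0.081 in replicate 2, so its sign differed between libraries. With coding length held constant the rho of tail and abundance was -0.405. The relation with length was not steady: in 10 bins of length the shortest genes had a median of 38.3 nt, the seventh bin 42.1 nt and the longest genes 40.5 nt.

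Of the base composition measures computed, the share of A in the 200 bases after the stop codon had the largest rho with tail length, -0.179 (-0.185 and -0.152 by library), whereas its rho with abundance was near 0, at 0.010 and -0.006 by library. This measure was chosen after seeing the values of all 4 bases. For T, C and G in that window rho was 0.108, 0.081 and 0.027, and for the GC content of the coding region it was -0.092. Over 4 bins of A content the median tail fell from 42.2 to 39.4 nt. In replicate 1 it fell from 40.1 to 36.6 nt and in replicate 2 from 44.2 to 41.5 nt. The window holds untranslated sequence and, for many genes, sequence beyond the transcript.

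Other features moved the median little. Genes ending in TAA, TAG and TGA had medians of 40.6, 40.4 and 41.7 nt. Outside ribosomal proteins, the 155 genes with an intron had 40.9 nt and the 3780 without had 41.1 nt. Over the 16 chromosomes medians lay between 39.4 nt (chromosome I) and 41.4 nt (chromosome XV). The 329 genes without a gene name had 43.1 nt at 40.1 CPM, against 40.7 nt at 50.6 CPM for named genes.

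The Puf3 motif TGTANATA stood within 200 bases after the stop codon, on the strand of the gene, in 651 genes (16.0%), against 14.0% of all 6008 annotated nuclear genes. Their median tail was 38.4 and 43.5 nt in the libraries, beside 38.6 and 42.9 nt in genes without it, a difference of 0.093 nt over the mean of libraries. Of 73 mitochondrial ribosomal protein genes, 72 held the motif (98.6%). That class had medians of 38.3 and 44.3 nt, on either side of the median gene in the libraries. It held 5 short (6.85%) and 9 long genes (12.3%), beside 16% and 16.1% of all genes. Of the genes whose sites are printed above, MRPS12 had 41.9 and 46.3 nt, MNP1 34.8 and 40.9 nt, and MRPS18 34.0 and 41.4 nt. All 3 were longer in replicate 2, and only MRPS12 lay above the median gene in both libraries.

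The Puf4 motif TGTANANTA was present in 352 genes (8.64%), against 7.36% of annotated genes. Holders had medians of 37.3 and 42.0 nt, beside 38.7 and 43.1 nt in the other genes. They were also more abundant, at 81.4 against 47.9 CPM in the median. Of 122 ribosome biogenesis factors 59 held the motif (48.4%), with a median of 38.5 nt against 38.7 nt for the 63 without. Outside that class the values were 39.9 and 41.0 nt. Of the printed examples, NHP2 and GAR1, proteins of the small nucleolar particles that modify ribosomal RNA, had 34.2 and 35.0 nt and 32.0 and 37.0 nt, and NOP10 of the same particles had 35.8 and 36.7 nt. Each lay below the median gene in both libraries. The RNAs of these 3 genes stood between 694 and 1500 CPM, in the most abundant bin, whose median tails were 33.6 and 36.5 nt.

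The Puf5 motif, TGTA and TA with 4 free bases between them, was found in 929 genes (22.8%), against 20.9% of annotated genes, and holders differed from the rest by -0.25 nt. In 170 genes a Puf3 and a Puf5 match began at the same base. A match of letters is not a bound site, and the part of abundance in the value for Puf4 was not tested.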

How the data were processed

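Per the file headers, the deposited table holds a raw read count and a median for each gene and library, a signal that the authors gave without a unit and that is taken as the median tail in nt. Per the submitters' processing notes, minimap2, SAMtools 1.9 and sacCer3 were used. The basecaller, the rule assigning reads to genes, the use of strand and the choice of genes for the table are not given in the sources used here. Only the columns of the wild type were read, and the unnumbered columns were taken as replicate 1 by elimination.

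CPM used the total over all listed genes. The sites and gene features came from R64. Statistics used Python 3.11.15, pandas 2.3.3, numpy 2.4.6 and scipy 1.17.1, and TMM scaling, an alternative, used edgeR 4.0.16 in R 4.3.3. The steps were tested on simulated data. With 1 group there was no contrast and no p-value. Intervals are Wilson intervals at 95%. A floor of 3 reads is 1.61 and 1.71 CPM.

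The members, gene classes and comparisons were chosen with earlier results of these data known. Genes were named by a rule: at 100 or more reads in both libraries, the 8 longest and 8 shortest mean tails, the 5 largest differences between libraries and the extremes of each class, the 8 most abundant genes, and the genes of the genotype label. Other genes named in the text as class examples, markers or genes beyond a limit were chosen after their values were seen. The Puf4 alternatives, the base composition measures and the 7 keyword classes were added after seeing the data.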

Additional observations from a re-analysis of the deposited data

How the results depend on the processing

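Weighting genes by reads gave a mean, not a median, of 35.1 nt. The rho of tails between libraries rose to 0.767 and 0.813 at minimums of 50 and 100 reads. The rho of tail and abundance was negative in every alternative run: -0.483, -0.391 and -0.353 at minimums of 1, 50 and 100 reads, -0.381 without ribosomal protein genes, -0.395 without the identifiers that carry an exon suffix, -0.348 with the tail of replicate 2 and the abundance of replicate 1, -0.367 with CPM divided by coding length, and -0.406 to -0.373 with 1 library left out. TMM and median-of-ratios scaling moved it by less than the SD between libraries. The rho with coding length was 0.120 to 0.172 with 1 library left out. The ribosomal protein offset of -8.26 nt was -5.42 nt at 100 reads. Classes below all genes in the mean of libraries numbered 20 of 28 as reported and 10 of 22 at 100 reads. There the respiratory chain (0.178 nt), mitochondrial import (1.32 nt; 0.386 nt at 50 reads), proteasome (0.443 nt), elongation factors (0.0975 nt), ribosome biogenesis (0.803 nt), vacuolar ATPase (0.158 nt), endoplasmic reticulum (0.223 nt), amino acid (0.28 nt) and ergosterol biosynthesis (0.683 nt) turned from below to above, initiation factors moved from -3.19 to -0.333 nt, and the nuclear pore had under 5 genes left; the median gene is shorter there. Short and long genes numbered 193 and 231 with 10% in place of 25% at each end, and 260 and 258 at 100 reads. The Puf4 difference of -1.44 nt was -1.65 and -0.905 nt in windows of 100 and 300 bases, -1.12 nt without ribosome biogenesis factors and -1.36 to -1.14 nt with 1 library left out. The rho with A content was -0.204 and -0.149 in windows of 100 and 300 bases and -0.185 to -0.152 with 1 library left out; the cause of these shifts was not tested. No paired analysis was possible because there is 1 group of 2 libraries and no contrast. Below 50 reads the spread between libraries limits single genes.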
